A study of Schizosaccharomyces pombe with 8 samples.

Results

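The shortest annotated introns of fission yeast, Schizosaccharomyces pombe, were followed through 6 splicing-factor mutants and wild type. They were taken as the annotated introns of 45 nt or less that had at least 20 spliced plus unspliced reads in every library. This gave 421 introns in 322 genes, out of 2514 annotated introns with that depth. Of 5144 annotated introns in all, 1191 had 45 nt or less at any depth. The mutant strains were prp10-R379H, prp22-V801M;G917R, cwf22-G191D, sap114-A152V, prp1-G705D and ntr1-W597R, with 1 library each, and wild type (WT) was strain ED666 with 2 libraries. All strains, WT included, were grown at 25 °C in liquid YPD and held at 37 °C for 15 minutes before poly(A) RNA was made. Each mutant stands as 1 library of 1 temperature-sensitive strain. No label says that the 2 WT libraries came from separate cultures, and the spread behind every p-value is that of these libraries, which can be technical in part. The alleles are point changes in proteins, and intron counts do not check these labels.

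An intron is removed after the spliceosome has recognised its 5′ splice site, its branch site and its 3′ splice site, and in fission yeast most introns are short enough for these to be recognised as a unit. Prp10, the counterpart of mammalian SF3B1, and Sap114, the counterpart of SF3A1, belong to the U2 snRNP, which pairs with the branch site. Prp1, the counterpart of PRPF6, holds the tri-snRNP together, Cwf22 is a component of the assembled spliceosome, and Prp22 and Ntr1 act at the release of mRNA and the disassembly of the spliceosome.

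The sequences below are shown because the space between the splicing signals is what sets these introns apart by rule. They come from the NCBI reference sequence of the nuclear chromosomes, at the coordinates of the deposited counts (build ASM294v2, counted from 1), and are written 5′ to 3′ on the transcribed strand. Capitals mark the first 6 bases, the last 3 bases and, where present, the last match to a branch-site motif, which is CTAAC or CTAAT or, with G as the third base, the form CTGAC or the form CTGAT. The first 5 are the shortest introns of the set, the next 5 had among the largest or smallest changes in the mutants or a high WT share, the next 3 had the largest differences of prp1 or prp10 from the other mutants, and the last 3 begin with GC.
vma11 intron 2 (I:2057696-2057727, plus strand, 32 nt): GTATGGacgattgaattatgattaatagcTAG
atg44 intron 1 (I:3367021-3367053, minus strand, 33 nt): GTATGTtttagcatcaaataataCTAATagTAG
nup131 intron 1 (II:975138-975171, minus strand, 34 nt): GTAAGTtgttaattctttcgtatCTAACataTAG
rpb1 intron 1 (II:1591169-1591203, plus strand, 35 nt): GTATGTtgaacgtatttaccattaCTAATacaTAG
icp55 intron 4 (I:4582834-4582868, plus strand, 35 nt): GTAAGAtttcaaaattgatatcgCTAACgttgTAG
pck1 intron 3 (I:2367726-2367766, minus strand, 41 nt): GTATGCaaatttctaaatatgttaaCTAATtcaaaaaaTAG
kap114 intron 2 (I:2373962-2374001, minus strand, 40 nt): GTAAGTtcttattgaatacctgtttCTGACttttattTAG
pfd3 intron 2 (I:601283-601326, minus strand, 44 nt): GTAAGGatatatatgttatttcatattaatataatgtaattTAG
SPAC16C9.01C intron 1 (I:792092-792128, minus strand, 37 nt): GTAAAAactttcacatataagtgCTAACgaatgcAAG
etp1 intron 1 (I:5037447-5037491, minus strand, 45 nt): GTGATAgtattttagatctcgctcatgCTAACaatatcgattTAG
rtf2 intron 1 (I:653179-653221, minus strand, 43 nt): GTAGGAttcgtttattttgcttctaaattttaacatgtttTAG
taf1 intron 1 (I:838383-838424, plus strand, 42 nt): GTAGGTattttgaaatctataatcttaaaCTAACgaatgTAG
ini1 intron 3 (I:2494857-2494895, minus strand, 39 nt): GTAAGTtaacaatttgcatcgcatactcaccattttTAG
sce3 intron 1 (II:1776857-1776893, minus strand, 37 nt): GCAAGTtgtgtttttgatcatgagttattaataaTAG
mnh1 intron 5 (II:4002182-4002223, minus strand, 42 nt): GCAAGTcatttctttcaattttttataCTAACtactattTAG
pla1 intron 1 (II:930445-930487, plus strand, 43 nt): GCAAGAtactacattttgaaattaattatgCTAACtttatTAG

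The 421 introns ran from 32 to 45 nt with a median of 42 nt, against a median of 62 nt over all 2514. Of them 416 lay within coding sequence, 4 in 5′ UTRs and 1 in a 3′ UTR. GT and AG ends were found in 418, and the other 3 began with GC; no longer intron tested began with GC. The 4 branch-site motifs, searched on the transcribed strand over the whole intron, were found in 281 of 421 short introns and in 1989 of all 2514. CTAAC, the most common form over all introns, stood in 30.4% of the short introns against 45.6% of all, CTAAT in 30.9% against 24.9%, and none of the 4 forms in 33.3% against 20.9%. From the A next to the last base of the motif, a median of 9 bases followed to the 3′ end in the short introns, against 11 over all introns, and a median of 28 bases lay before the motif, against 47. A match is a run of letters and not a mapped branch site. In lub1 intron 2 and SPAC1687.21 intron 3, for example, the only match lay near the 5′ end, with 34 and 30 bases after its A.

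The frame left by retention also differed in these introns. With the intron kept, an in-frame stop lay inside it in 336 of 416 coding short introns (80.8%), against 90.7% of longer ones. In 21 (5.05%) the frame was kept with no stop, against 2.01% of longer ones, and in 59 (14.2%) the frame shifted with no stop inside. The class with the frame kept and no stop includes etp1 intron 1, mks1 intron 1 and bqt4 intron 2.

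Spliced plus unspliced reads over all annotated introns ran from 809751 (prp10) to 1858792 (ntr1) in the mutants and were 420473 and 846804 in WT. The short introns held 59668 (cwf22) to 111327 (ntr1) reads in the mutants, and 39677 and 78180 in WT. The median short intron had 78 to 149 reads in the mutants and 50 and 101 in WT, and 208 of the 421 had at least 50 reads in every library. The unspliced share is unspliced over unspliced plus spliced reads. How reads were counted as unspliced is not given in the sources used here, so shares of introns of different length may carry a counting difference, which was not tested. An interval beside the share of a single library is a 95% interval by Wilson's method, and it covers only the error of counting.

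Very short introns were removed almost fully in WT and were mostly retained in 5 of the 6 mutants. Their median unspliced share was 60.4% in cwf22, 76.2% in ntr1, 30.6% in prp1, 62.5% in prp10, 60.8% in prp22 and 72.3% in sap114, against 3.85% and 4.29% in WT. The mutant medians averaged 60.5% ± 16 (SD, n = 6) and the WT medians 4.07% ± 0.311 (SD, n = 2), and no mutant median came near the WT pair. The odds of unspliced to spliced reads were higher in the mutants as a class at 411 of 421 short introns and lower at 0, by edgeR's quasi-likelihood test with Benjamini-Hochberg adjustment over all 2514 introns. The background was 96.9% called higher over all tested introns, so the 97.6% of the short introns is near it. edgeR gave 0 lower without adjustment too, at p under 0.05. Among adjusted calls, DESeq2 had 411 higher and 0 lower and limma 412 higher and 0 lower. The median change was 5.21 on the log2 scale of the odds, against 5.07 over all introns. The 6 mutants all exceeded the WT pair in unspliced share at 416 short introns, against a background of 98.6% of all introns. When odds were centred on the median of each library, 63 short introns were higher and 73 lower in limma, against 15.2% and 19.5% of all introns. Without 1 library at a time the count called higher was 381 to 417.

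**Figure D1:**
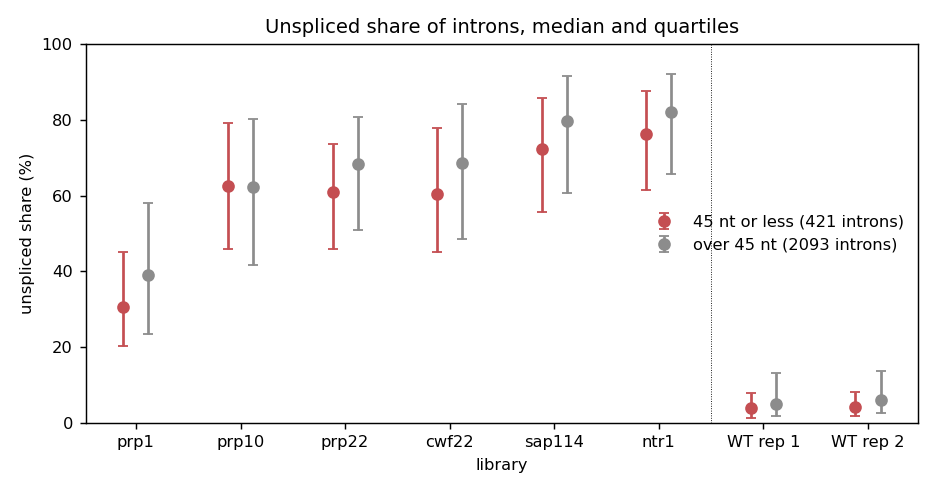
Unspliced share (percent, vertical axis) in each of the 8 libraries (horizontal axis), with points for the median intron and bars from the lower to the upper quartile, for the 421 introns of 45 nt or less (red) and the 2093 longer ones (grey). The short-intron medians lie at 30.6% in prp1, between 60.4% and 76.2% in the other mutants, and at 3.85% and 4.29% in WT, and lie below the longer introns in every library except prp10.

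The largest rises took introns from nearly complete removal to nearly complete retention. In pck1, which encodes a protein kinase C of the cell-wall pathway, intron 3 (41 nt, coding) was unspliced in 69.3% of reads in the lowest mutant, 97.4% in the median and 98.4% in the highest, against 4.65% and 9.97% in WT. The 2 groups were far apart, and the lowest mutant, prp1, was still well above WT. The log2 change in the odds was 7.96 (standard error 1.16, edgeR adjusted p = 2.3e-06). In kap114, encoding an importin-beta type karyopherin, intron 2 (40 nt, coding) had 38.1% unspliced reads in the lowest mutant, 84.3% in the median and 96.6% in the highest, against 3.95% and 3.4% in WT. Its log2 change was 7.15 (standard error 1.21, edgeR adjusted p = 3.92e-06), with prp1 apart from the other 5 mutants. Intron 3 of cds1, the replication checkpoint kinase (III:740689-740733, 45 nt), had 56.9% in the lowest mutant, 88.4% in the median and 95.7% in the highest, against 3.64% and 8.06% in WT. Here prp10 was the highest library and no mutant share reached down to WT (log2 change 6.67, standard error 1.10, edgeR adjusted p = 3.31e-06).

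Intron 3 of rpb1, for the largest subunit of RNA polymerase II (II:1591343-1591381, 39 nt), had 46.2%, 84.0% and 95.3% as lowest, median and highest mutant shares, against 3.23% and 3.12% in WT. Intron 2 of tif225, for the epsilon subunit of the exchange factor eIF2B (I:3671291-3671333, 43 nt), had 63.4%, 85.6% and 94.2% in the mutants, against 8.2% and 7.14% in WT. The groups did not overlap in either, and both rises passed (edgeR adjusted p = 3.83e-06 and 4.86e-06). Intron 1 of tbc13, annotated as a GTPase-activating protein (I:5000892-5000932, 41 nt), averaged 81.5% ± 15.3 in the mutants and 5.62% ± 2.81 in WT (SD, n = 6 and n = 2). Intron 2 of lub1, a WD repeat protein gene (II:3548175-3548219, 45 nt), averaged 82.3% ± 15.4 in the mutants and 3.89% ± 1.34 in WT. Intron 1 of efr3, whose counterparts in budding yeast and mammals anchor a phosphatidylinositol kinase at the plasma membrane (III:265645-265684, 40 nt), averaged 80.3% ± 18 in the mutants and 4.18% ± 3.38 in WT. These 3 rises also passed, with log2 changes of 6.54, 7.2 and 6.92, and in each of them prp1 was the lowest of the mutants.

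The 5 shortest introns were all retained more in the mutants, and those of vma11 and atg44 had the highest WT shares among them. In vma11, for a proteolipid subunit of the vacuolar proton pump, the 32-nt intron 2 had 71.4% unspliced reads in the lowest mutant, 84.0% in the median and 86.1% in the highest, against 27.8% (interval 17.6 to 40.9) and 24.4% (interval 17.5 to 32.8) in WT. Every mutant lay above WT, and the WT shares were several times the WT median of short introns (log2 change 3.75, standard error 0.88, edgeR adjusted p = 0.000159). In atg44, for mitofissin, a protein of mitochondrial fission, the 33-nt intron 1 had 50.2%, 64.6% and 72.6% as lowest, median and highest mutant shares, against 20.8% and 28.6% in WT. The groups did not overlap, but the call (log2 change 2.36, edgeR adjusted p = 0.0100) was lost without WT replicate 1 (2.07, edgeR adjusted p = 0.112) and without WT replicate 2 (2.68, edgeR adjusted p = 0.0503). The 34-nt intron 1 of nup131, a nucleoporin gene, had 73.6%, 96.8% and 98.8% in the mutants, against 6.06% and 8.77% in WT, and passed (log2 change 7.43, edgeR adjusted p = 3.7e-06). Its WT shares were well under those of the vma11 intron, which is 2 nt shorter. Intron 1 of rpb1 (35 nt) had 31.0%, 77.3% and 91.0% in the mutants, against 5.56% and 3.08% in WT (log2 change 5.96, edgeR adjusted p = 1.72e-05). Intron 4 of icp55, a peptidase gene, also of 35 nt, had 24.1%, 41% and 64% in the mutants, against 16% and 9.52% in WT (log2 change 2.37, edgeR adjusted p = 0.0208). That call was lost without WT replicate 2 (1.93, edgeR adjusted p = 0.162). Here prp1, at 47.3%, was not the lowest mutant; prp22 was.

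In the class test 10 of the 421 did not pass, and some of these were already retained in WT. Intron 1 of etp1, for a monooxygenase-ferredoxin fusion protein (45 nt, coding), had 95.8%, 97.4% and 98.9% as lowest, median and highest mutant shares, against 92.2% and 94.6% in WT (log2 change 1.35, edgeR adjusted p = 0.163). Intron 1 of SPAC16C9.01C, annotated as a carbohydrate kinase (37 nt), had 83.9%, 86.4% and 90.2% in the mutants, against 71.6% and 72.7% in WT. The mutants lay above WT in each of the 2 introns, and without prp1 the second one passed (log2 1.32 with it, 1.38 without it, edgeR adjusted p = 0.128 and 0.0379). At the other end, intron 2 of pfd3, for a prefoldin subunit (44 nt), had only 8.38%, 12% and 14.2% in the mutants, against 3.66% and 4.82% in WT. Its log2 change of 1.51 did not pass (edgeR adjusted p = 0.114), and did without prp1 (1.57, edgeR adjusted p = 0.0400). The others that did not pass were SPAC9.06C intron 2, tae1 introns 1 and 4, icp55 intron 3, vma3 intron 1, ubc1 intron 5 and SPCC132.03 intron 1. Of these tae1 intron 4 stayed almost fully spliced, with 1.41% to 7.69% unspliced reads in the mutants and 2.38% and 2.94% in WT, and its mutant and WT shares overlapped. These 7 are named as the rest of the 10, after their values were seen.

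A WT share above 50% was found in 7 short introns of 421, against 105 of all 2514. Beside etp1 intron 1, SPAC16C9.01C intron 1, SPCC132.03 intron 1 and tsn1 intron 4 they were mmp1 intron 1, cdc2 intron 1 and vma9 intron 3. The last lies in the 3′ UTR of a gene for the vacuolar proton pump (II:501895-501934, 40 nt) and had 93.0%, 97.2% and 98.7% in the mutants and 83.8% and 77.9% in WT. Intron 1 of cdc2, in the 5′ UTR of the cyclin-dependent kinase gene (II:1500244-1500285, 42 nt), had 80.4%, 89.1% and 94.3% in the mutants, against 57.5% and 60.8% in WT. Intron 1 of mmp1, annotated as the catalytic subunit of an endopeptidase (II:2979299-2979341, 43 nt), had 79.1%, 88.1% and 93.3% in the mutants, against 65.4% and 57.3% in WT. Each of the 3 was higher in 6 of 6 mutants and passed (edgeR adjusted p = 0.00152, 0.0117 and 0.0170). The cdc2 call was lost without WT replicate 1 (log2 2.25, edgeR adjusted p = 0.0843) and without WT replicate 2 (2.45, edgeR adjusted p = 0.0677), and the mmp1 call likewise (2.43 and 1.94, edgeR adjusted p = 0.0653 and 0.141).

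Small rises were found in 3 further introns that stayed mostly spliced in every mutant. Intron 3 of SPAC1687.21, annotated as a fructose-2,6-bisphosphatase (I:942574-942614, 41 nt), averaged 11% ± 2.91 in the mutants and 1.22% ± 0.943 in WT. Intron 1 of cox12, for subunit VIb of cytochrome c oxidase (III:1781936-1781980, 45 nt), averaged 14.8% ± 7.75 in the mutants and 2.95% ± 1.07 in WT. Intron 1 of SPBC3E7.07C, an uncharacterized protein (II:2672652-2672696, 45 nt), averaged 14.5% ± 4.45 in the mutants and 3.13% ± 1.60 in WT (SD, n = 6 and n = 2 for all 3). They passed with edgeR adjusted p-values of 0.00141, 0.00763 and 0.0318. The cox12 call was lost without WT replicate 2 (log2 2.02, edgeR adjusted p = 0.117). The SPBC3E7.07C call was lost without WT replicate 1 (1.88), WT replicate 2 (2.96), prp22 (2.13), cwf22 (2.23) or ntr1 (2.09), with edgeR adjusted p-values of 0.173, 0.0971, 0.0707, 0.0612 and 0.0508.

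**Figure D2:**
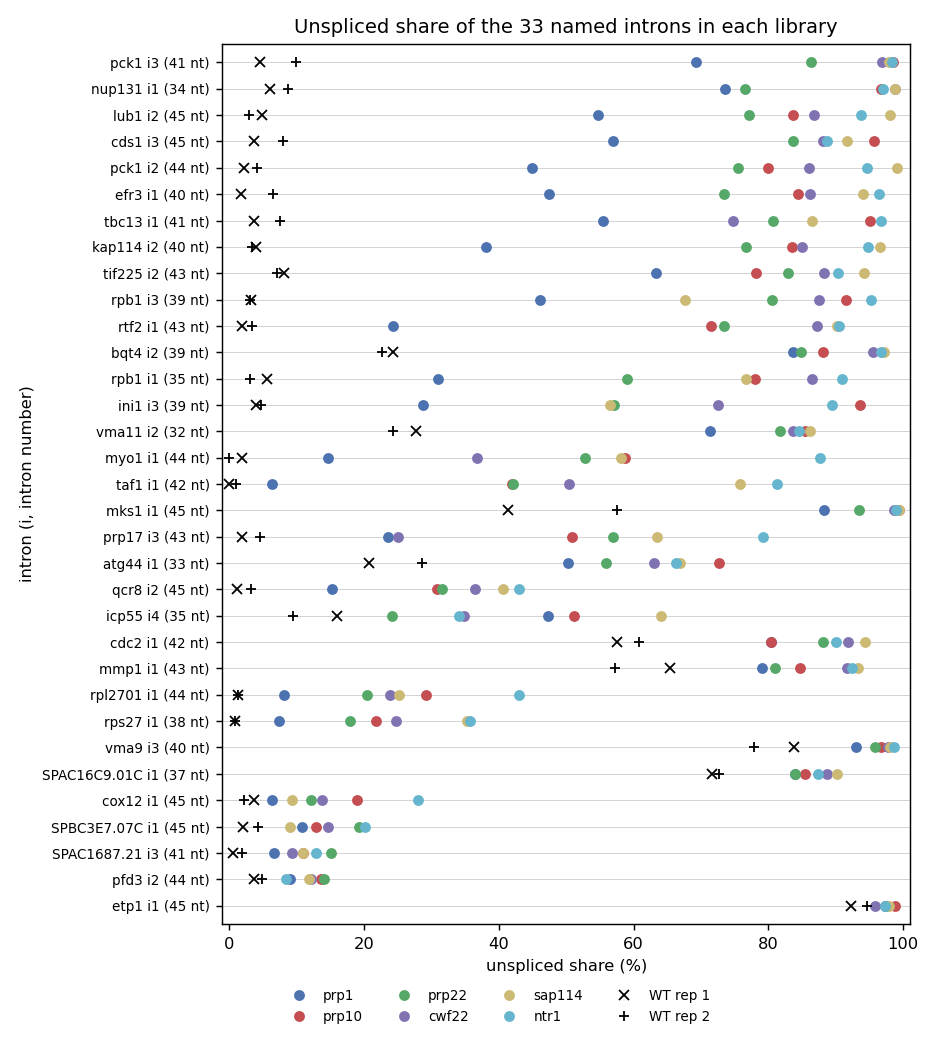
Unspliced share (percent, horizontal axis) of each of the 33 named introns of 45 nt or less (vertical axis, ordered by the difference between mutants and WT), with filled points for the 6 mutant libraries and crosses for the 2 WT libraries. The widest separations are at pck1, nup131 and lub1, prp1 (dark blue) is often the lowest mutant, and at etp1 and pfd3 mutant and WT points lie close together.

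Several genes carried more than 1 such intron. Of the 322 genes, 74 held 2 or more and 18 held 3 or more, and introns of 1 gene share its transcript and are not replicates. In clr6, the gene of a histone deacetylase, 7 of 13 introns belonged to the set and all 7 were called higher in the class test. Their mean mutant shares ran from 31.7% to 54.1%, and no WT share exceeded 6.90%. All 4 introns of nup131 belonged to the set, with mean mutant shares of 74.0% to 90.2% and WT means of 1.92% to 10.2%. In kap114 4 of 6 introns did, at 78.6% to 85.3% in the mutants and 3.67% to 16.1% in WT. In icp55 4 of 11 introns did, and they differed more among themselves, from 18.1% to 60.5% in the mutants and from 1.35% to 33% in WT, with 3 of the 4 called. The gene srp2, whose product is annotated as Srp2/Npl3, held 3, with mean mutant shares of 33.4% to 55.3% and WT means of 0.534% to 1.80%. These genes were picked by their number of short introns, apart from srp2, which was chosen after its values were seen.

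Grouped by gene symbol, the short introns of different gene classes had different levels of retention, while the share called higher was near the 96.9% of all introns and says nothing particular to a class. No list had a short intron called lower. Each list holds the genes with its symbol prefixes, and their functions were not checked. This applies for example to cox24 in the respiratory list, sec61 in the vesicle traffic list, and cdc37 and cdc73 in the cell cycle list. All 8 in respiratory chain and ATP synthase genes were called higher, with a median mutant share of 30.9% against 2.61% in WT. All 5 in the ribosomal protein list were called higher, with a mutant median of 51.1% against 2.66% for WT. By its symbol this list takes in rpp40, a subunit of RNase P. Of 16 proteasome and ubiquitin introns 15 were called higher, at 47.4% in the mutants and 1.78% in WT, and ubc1 intron 5 was not. Higher medians were found for 8 introns in 5 kinase and phosphatase genes (78.1% in the mutants and 5.25% in WT). The same held for 16 introns in 10 transcription genes (76.0% and 4.89% in mutants and WT). It also held for 9 in 7 cell cycle and cytoskeleton genes (74.8% and 6.44% in mutants and WT), and the introns of these lists were all called higher. Of the kinase introns 3 were in pck1, with mean mutant shares of 80.0% to 91.2%. Of the transcription introns 3 were in rpb1, at 70.3% to 82.3%. A single gene can thus weigh heavily in the median of a list. The 20 in spliceosome genes were all called higher, at 57.7% in the mutants and 3.43% in WT; they lie in 14 genes, and the symbol prefixes also bring in srp14, of the signal recognition particle. The 18 in vesicle traffic genes (65.7% in the mutants and 3.56% in WT), 4 in genes of the mitochondrial ribosome (63.0% and 5.25% in mutants and WT) and 4 in genes of meiosis and sporulation (73.4% and 4.40% in mutants and WT) were all called higher too. Over all short introns the median of the mean mutant share was 60.8% and that of the mean WT share 4.12%.

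Within the ribosomal protein and respiratory groups stood the 3 short introns with the most spliced reads. Intron 1 of rps27, for a protein of the small ribosomal subunit (II:517350-517387, 38 nt), had 7.46%, 23.2% and 35.7% unspliced reads as lowest, median and highest mutant shares, against 0.923% and 0.951% in WT. Intron 1 of rpl2701, for a protein of the large subunit (II:2780583-2780626, 44 nt), had 8.11%, 24.5% and 43% in the mutants, against 1.26% and 1.27% in WT. Intron 2 of qcr8, for a subunit of the cytochrome bc complex (I:4767349-4767393, 45 nt), had 15.3%, 34.0% and 43% in the mutants, against 1.21% and 3.25% in WT. In all 3 the groups were apart, the highest mutant stayed below an equal split of spliced and unspliced reads, and the rises passed (edgeR adjusted p = 3.14e-05, 3.52e-05 and 2.14e-05).

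Each strain was also set against WT on its own, with the spread taken from the WT pair (1 residual degree of freedom) and a mutant library assumed to vary as the WT libraries do. By edgeR, 413 of 421 short introns were called higher in ntr1, where 98.8% of all introns were called. The counts were 411 in sap114 (background 98.1%), 411 in cwf22 (background 97%), 408 in prp22 (background 97.5%), 408 in prp10 (background 95.6%) and 394 in prp1 (background 92.5%). No short intron was called lower in any strain: edgeR called 0, with 0 at an unadjusted p under 0.05, and DESeq2 and limma called 0. In all 6 strains together 386 of 421 were called higher, where 90.3% of all introns were. Without WT replicate 2 the prp1 count was 246, and without WT replicate 1 it was 278. The introns with the largest change in a strain were mostly those of the class test, with pck1 intron 3 at 96.9% in cwf22, 98.4% in prp10, 86.3% in prp22 and 69.3% in prp1. Intron 2 of pck1 (I:2367956-2367999, 44 nt) was the leading intron in sap114, at 99.1% (interval 96.8 to 99.8) against 2.21% and 4.15% in WT. Intron 2 of bqt4, for an inner nuclear membrane protein that anchors telomeres (II:2840967-2841005, 39 nt), reached 83.6% in prp1 against 24.3% and 22.7% in WT. The other 5 mutants had 84.8% to 97.1% there, so prp1 lay close to them at this intron.

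Against the other 5 mutants, prp1 retained its short introns less. Its odds were lower at 237 of 421 by edgeR, where 52.4% of all introns were called lower, and 285 were lower at an unadjusted p under 0.05. DESeq2 called 270 and limma 171. With the odds centred on each library's median the count in limma was 0. The prp1 share was the lowest of the 6 mutants at 393 short introns (93.3%, against 90.8% of all introns). Intron 1 of rtf2, for a replication termination factor, had 24.3% unspliced reads in prp1 (interval 17.9 to 32.0), against 87.3% in cwf22, 90.4% in ntr1, 71.4% in prp10, 73.4% in prp22 and 90.2% in sap114, and 1.92% and 3.4% in WT. The log2 difference of prp1 from the other mutants was -4.00 (standard error 0.93, edgeR adjusted p = 0.0166). Intron 1 of taf1, for a subunit of the general transcription factor TFIID, had 6.43% in prp1 (interval 3.42 to 11.8), against 50.4% in cwf22, 81.2% in ntr1, 42.0% in prp10, 42.1% in prp22 and 75.9% in sap114. In WT it had 0 of 61 reads, which allows a share of up to 4.92%, and 0.962%. Against WT the log2 change of prp1 here was 3.32 (standard error 1.33). Even so, prp1 lay nearer to WT than to the other mutants, which spread widely (log2 difference from them -4.38, standard error 1.05, edgeR adjusted p = 0.0166). With centred odds the 2 differences were -1.93 and -2.29 and did not pass (limma adjusted p = 0.554 and 0.531).

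In the other strains no short intron was called against the remaining mutants, and no longer intron was either. The spread of this test takes in the differences among the other mutants, so a large difference may not pass. At intron 2 of pck1, for example, the log2 difference of sap114 was 4.69 (standard error 1.46) and did not pass. The lack of calls therefore says nothing particular to short introns. By edgeR 0 were called in ntr1, sap114, cwf22, prp22 and prp10, where 0% of all introns were called in either direction, and DESeq2 and limma also called 0. At an unadjusted p under 0.05 in edgeR, 3 were higher in prp10, 15 in sap114, 24 in ntr1 and 0 in prp22 and cwf22, and 0 were lower in each. The share of all introns at that unadjusted threshold was not counted, so these counts are not read as particular to short introns. The largest difference in prp10 was at intron 3 of ini1, whose product is annotated as a RING finger-like protein. Its unspliced share was 93.5% in prp10 (interval 89.1 to 96.3), against 57.0% in prp22, 72.5% in cwf22, 56.5% in sap114, 28.8% in prp1 and 89.4% in ntr1, and 4.0% and 4.67% in WT. The prp10 and ntr1 libraries were high there and sap114, the other U2 mutant, was not (log2 difference of prp10 from the other mutants 3.09, standard error 1.37, edgeR adjusted p = 1.00). Intron 1 of myo1, for a type I myosin (II:1027884-1027927, 44 nt), had the largest difference in ntr1, with 87.7% there and 14.7% to 58.7% in the other mutants, against 1.92% and 0 of 110 reads in WT (a share of up to 2.73%). Intron 3 of prp17, itself a splicing factor gene (II:2653218-2653260, 43 nt), was 25.0% unspliced in cwf22, close to the 23.6% of prp1, while the other 4 libraries of mutants had 50.8% to 79.2% and WT had 1.92% and 4.6%. Neither difference passed (edgeR adjusted p = 0.496 for ntr1 at myo1 and 1.00 for cwf22 at prp17).

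Although no intron passed alone, the short introns as a set stood differently against longer ones in prp10 than in the other libraries. The median log2 odds of the 421 short introns minus that of the 2093 longer ones was -0.52 in cwf22, -0.50 in ntr1, -0.53 in prp1, 0.014 in prp10, -0.47 in prp22 and -0.58 in sap114, against -0.33 and -0.52 in WT. In percentages, the median short intron was at 62.5% and the median longer one at 62.3% in prp10. In sap114 they were at 72.3% and 79.6%, for short and longer introns. The gap depends on which longer introns are taken. Introns of 46 to 55 nt alone had median shares of 56.5% in cwf22, 74.4% in ntr1 and 29.1% in prp1. They had 52.6% in prp10, 58.4% in prp22 and 69.6% in sap114, and 2.99% and 3.37% in WT. The short introns lay above this class in every library, and introns over 100 nt had the highest medians. The prp10 value of the gap in log2 odds lay 0.53 above the mean of the other 5 mutants, whose values had an SD of 0.040 (n = 5). That SD is between strains and does not measure how far replicates differ. The 2 WT libraries, the only replicates, lay further apart than that SD, at -0.33 and -0.52. With 1 library for prp10, its difference is a description and carries no p-value. Within the 226 genes that hold both kinds, with 306 short and 418 longer introns, the median gap was -0.33 in cwf22, -0.51 in ntr1, -0.47 in prp1, 0.021 in prp10, -0.51 in prp22 and -0.55 in sap114, against -0.48 and -0.49 in WT. The short introns were the less spliced ones in 51.3% of these genes in prp10, in 29.6% to 37.6% in the other mutants and in 40.3% and 41.2% in WT.

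**Figure D3:**
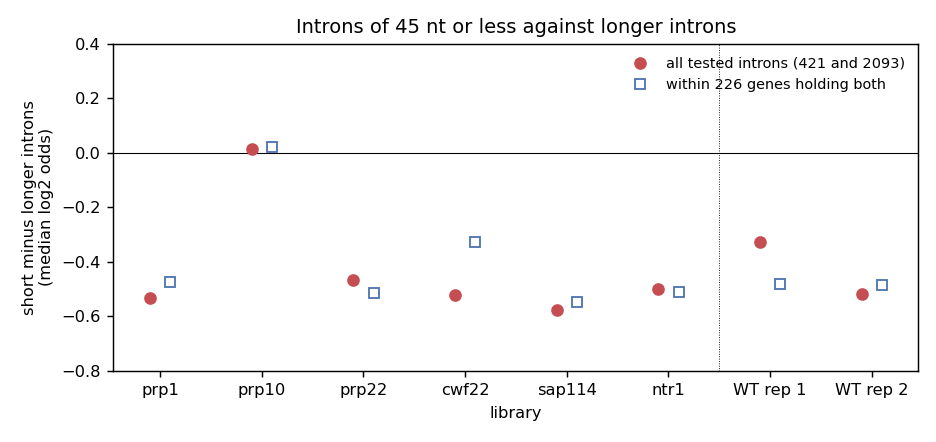
Median log2 odds of introns of 45 nt or less minus that of longer introns (vertical axis) in each library (horizontal axis), over all tested introns (red circles) and as the median over the 226 genes that hold both kinds (open blue squares). The prp10 values are 0.014 and 0.021, while those of the other 5 mutants and of the WT libraries lie between -0.58 and -0.33.

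Within the set, the introns of 40 nt or less stood highest on this measure. The prp10 log2 odds minus the mean of the other 5 mutants had a median of 0.31 over the 147 introns of 40 nt or less, 0.065 over the 142 of 41 to 43 nt and 0.10 over the 132 of 44 and 45 nt. Over longer introns it was -0.31 at 46 to 55 nt, -0.53 at 56 to 65 nt, -0.48 at 66 to 100 nt and -0.35 over 100 nt. Most short introns lay above 0 on this measure, 250 of 421 (59.4%), against 23.7% of longer ones. Against WT, the median change of the log2 odds in prp10 was 5.12 for the short introns and 4.6 for the longer ones, and in sap114 5.78 for both. The medians for short and for longer introns were 4.90 and 4.87 in prp22, 5.02 and 4.98 in cwf22, 3.16 and 3.22 in prp1 and 6.07 and 6.06 in ntr1. The prp10 share was the highest of the 6 mutants at 40 short introns (9.5%), against 66 of all introns (2.63%). The highest was ntr1 at 210 (49.9%, against 53.3% of all introns) and sap114 at 135 (32.1%, against 35.9%). The prp10 library had the fewest reads of the mutants, 809751, and the part of depth in the pattern was not tested. With a minimum of 50 reads in each library the difference of the gap from the other mutants was 0.64. At the length limit, the prp10 difference from the other mutants had a median of 0.046 over the 72 introns of exactly 45 nt, with 52.8% above 0, and of -0.31 over the 63 of 46 nt, with 34.9% above 0. The unspliced share there had a mean mutant median of 62.7% at 45 nt and 62.2% at 46 nt, and WT means of 3.93% and 3.73%.

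**Figure D4:**
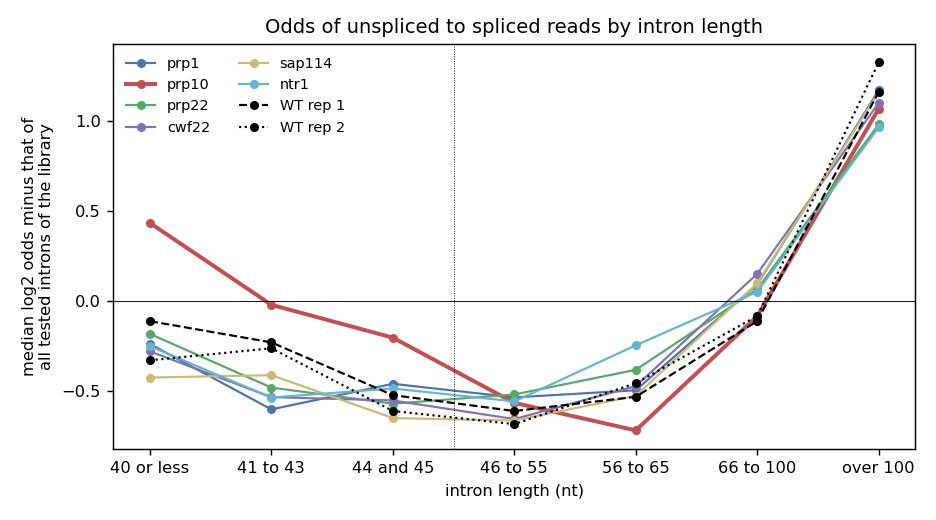
Median log2 odds of unspliced to spliced reads in 7 intron length classes (horizontal axis, nt) minus the median of all tested introns of the same library (vertical axis), with a line for each library and the limit of 45 nt dotted. The prp10 line (red) lies above the other 7 in the 3 classes of 45 nt or less and is the lowest of the 8 at 56 to 65 nt.

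Retention also varied with sequence features of the short introns, most widely between classes of few introns. With CTAAC the median of the mean mutant share was 56.9% (128 introns) and the WT one 3.09%, with CTAAT 64.7% and 4.64% in mutants and WT (130 introns), and with no motif 61.6% and 4.72% in mutants and WT (140 introns). It was 62.0% in the mutants and 3.42% in WT with CTGAC (16 introns), and 80.2% and 3.52% in mutants and WT with CTGAT (7 introns). With more than 12 bases after the fourth base of the motif, the branch A, the mutant value was 67.7% (30 introns), and with 9 or 10 it was 54.4% (103 introns). Over all tested introns, CTAAC and CTAAT had 64.7% and 64.9% in the mutants. The first 6 bases were GTAAGT in 91 short introns, with 57.0% in the mutants and 3.16% in WT, and GTATGT in 75, with 59.2% and 3.77% in mutants and WT. It was 70.2% in the mutants with GTACGT (16 introns), 63.2% with GTATGA (24 introns) and 56.1% with GTAAGA (44 introns). Introns with none of these 5 forms, 171 in all, had 64.2% in the mutants and 5.06% in WT. The last 3 bases were TAG in 286, CAG in 75 and AAG in 60. Across the 421 introns, Spearman's rho of the mean mutant share was -0.085 with length, 0.054 with the share of G and C, and 0.49 with the mean WT share, and of the prp10 difference with length -0.18; these points share libraries and are a description. The 3 introns that begin with GC all rose in the class test. Intron 1 of sce3, a translation initiation factor gene, had 66.6%, 80.5% and 84.3% as lowest, median and highest mutant shares, against 28.0% and 28.6% in WT. Intron 1 of pla1, for poly(A) polymerase, had 34.3%, 58.1% and 81.7% in the mutants, against 6.52% and 4.41% in WT. Intron 5 of mnh1, the fission yeast mago nashi gene, had 26.5%, 51.3% and 61.9% in the mutants, against 5.63% and 7.32% in WT. The groups did not overlap in any of the 3 (edgeR adjusted p = 0.000423, 9.4e-05 and 0.00041 for sce3, pla1 and mnh1).

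Reads spliced across the short introns were fewer in the mutants. Counts were put on a scale of 1000000 reads over the tested introns, with TMM factors of the totals, and are called spliced RPM. The median short intron had a spliced RPM of 31.6 in cwf22, 19.1 in ntr1, 62.8 in prp1, 35.1 in prp10, 33.1 in prp22 and 21.6 in sap114, against 101 and 104 in WT. The mutant medians averaged 33.9 ± 15.6 (SD, n = 6) and the WT medians 102 ± 2.35 (SD, n = 2). By edgeR's quasi-likelihood test 369 of 421 short introns were lower and 0 higher, where 81.7% of all introns were lower, with a median log2 change of -1.49 against -1.38 over all. None was higher at an unadjusted p under 0.05 (0) or in DESeq2 (0), which called 376 lower. In 398 short introns all mutant values lay below both WT values, against a background of 92.6%. This test rests on both WT libraries. Without WT replicate 1, 0 short introns passed, with a smallest adjusted p of 0.0774 in edgeR and 237 lower at an unadjusted p under 0.05. Without WT replicate 2, 0 passed as well, with 0.0866 and 227. The median log2 change stayed at -1.47 and -1.48 in these fits. When libraries were instead scaled on the spliced reads themselves, 4 were higher and 12 lower, against 2.35% and 2.78% of all introns. These counts also follow the level of each transcript and do not measure splicing alone.

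The largest falls in spliced reads were at mks1, pck1 and vma9. Intron 1 of mks1 (I:1262610-1262654, 45 nt) had 7.14 ± 9.65 spliced RPM in the mutants and 104 ± 33 in WT (SD, n = 6 and n = 2), a log2 change of -3.80 (standard error 0.84, edgeR adjusted p = 0.0128). Its unspliced share was 88.3%, 98.8% and 99.4% as lowest, median and highest in the mutants, against 41.4% and 57.5% in WT. Intron 3 of pck1 had 28.2 ± 45.6 spliced RPM in the mutants and 358 ± 1.2 in WT, with prp1 alone at 119 and the other mutants at 3.81 to 27.8. Intron 3 of vma9 had 11.2 ± 7.95 in the mutants and 95.3 ± 14.0 in WT (log2 changes -3.65 and -3.08, edgeR adjusted p = 0.0128 for both). Without WT replicate 1 or 2 the 3 introns had edgeR adjusted p-values of 0.0774 and 0.0866. At the other end of the scale, the abundant rps27 intron 1 had 6111 ± 1304 spliced RPM in the mutants, against 9061 ± 176 in WT, and rpl2701 intron 1 had 2578 ± 552 in the mutants, against 4093 ± 449 in WT. Their log2 changes of -0.57 and -0.67 passed narrowly (edgeR adjusted p = 0.0452 and 0.0305). The rps27 call was lost in DESeq2 (adjusted p = 0.0537) and without any 1 of the libraries other than prp1, with log2 changes from -0.59 to -0.50 and edgeR adjusted p-values from 0.0635 to 0.172. The rpl2701 call was lost without either WT library, prp10, prp22 or cwf22, with log2 changes from -0.77 to -0.55 and edgeR adjusted p-values from 0.0501 to 0.191. Intron 2 of qcr8 had 758 ± 196 in the mutants and 1422 ± 10.6 in WT (log2 change -0.91, edgeR adjusted p = 0.0155, and 0.0892 and 0.0923 without WT replicate 1 or 2).

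**Figure D5:**
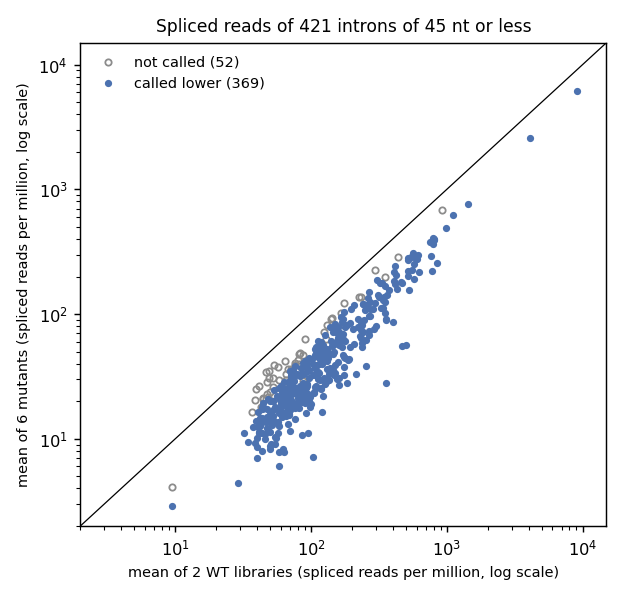
Mean spliced RPM of each of the 421 introns of 45 nt or less in the 6 mutants (vertical axis, log scale) against the mean of the 2 WT libraries (horizontal axis, log scale), with filled points for the 369 called lower by edgeR and open ones for those not called. All points lie below the line of equal values, and the 2 at the upper right are rps27 intron 1 and rpl2701 intron 1.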

How the data were processed

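RNA-seq libraries of 6 mutant strains (1 each) and WT (2) were analysed from 1 table. The authors deposited counts of spliced and unspliced reads per junction, per the file headers, without normalization. STAR 2.5, bedtools 2.26 and build ASM294v2 are named, with no role, per the submitters' processing notes. The rule for calling a read unspliced, and the annotation, are not given here. NEBNext directional poly(A) libraries were made from 1 µg of RNA, per the labels' protocols. The reference sequence used for symbols, frames and motifs had the same chromosome lengths.

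The 2514 introns that reached 20 reads in all libraries entered edgeR 4.0.16 fits (R 4.3.3) of both read classes, with a separate fit for each grouping. In each fit every library had a coefficient and each group had 1 for unspliced over spliced, so that no scaling between libraries enters. The groups were the 6 mutants against WT, each strain against WT, and each strain against the other 5 mutants with WT as a group of its own. Benjamini-Hochberg adjustment at 0.05 ran over all 2514. A strain library was assumed to vary like the libraries that gave the spread. Spliced counts alone were tested with library sizes from the summed totals times their TMM factors. Log2 odds used a pseudocount of 0.5. DESeq2 1.42.0, limma 3.58.1, centred odds, other read minimums, other length limits and libraries left out were the alternatives. Python 3.11.15, pandas 2.3.3, numpy 2.4.6 and scipy 1.17.1 made the summaries. The fits were tested on simulated counts with known changes. For the class comparison every simulated mutant had the same change, so the differences among the real strains were not covered. A library at 0 was given the limit of 3 counts of its total.

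Named introns were, 1 per gene within each rule and with at least 50 reads in every library, the 8 largest and 5 smallest class changes in percentage points, the 2 largest changes of each strain against WT, up to 2 per strain against the other mutants (the largest 1 where none passed), the 5 highest WT shares, the 3 with the most spliced reads and the 3 largest falls in them. The 5 shortest introns, and those of 45 and 46 nt as a description, came without the read minimum, and the 3 that begin with GC after the sequences were seen. Gene lists were made from symbol prefixes. The members, lists and tests were chosen with earlier results of these data known.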

Additional observations from a re-analysis of the deposited data

Results flagged for a closer look

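Among the 37 sets of 6 mutant values examined for a sample far from the others, 7 had one by Dixon's criterion at 95%, and 6 of these were prp1. Chance gives about 1 in 20 for independent sets, which these are not, since they share the 6 libraries. At rtf2 intron 1 the intron was also named for its difference in prp1. The median unspliced share of the short introns was 30.6% in prp1, and their median was 62.8 spliced RPM in prp1, each apart from the other 5 mutants. At single introns prp1 stood apart at rtf2 intron 1 (24.3%), vma11 intron 2 (71.4%), kap114 intron 2 (38.1%) and cds1 intron 3 (56.9%). The seventh was prp10, whose short introns lay 0.014 above the longer ones in median log2 odds. The same gap taken within genes was also examined and did not meet the criterion. There prp10 had 0.021 and the next mutant, cwf22, had -0.33.

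The odds of prp1 differed from those of the other 5 mutants in a direct test at rtf2 intron 1 (log2 -4.00, higher in 5 of 5 other mutants) and at taf1 intron 1 (log2 -4.38, likewise), both with an edgeR adjusted p of 0.0166.

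Reads that used another 5′ splice site at the short introns, a class the comparisons above leave out, made up more of the spliced reads in 5 mutants than in either WT library. Their share was 0.228% in cwf22, 0.222% in ntr1, 0.225% in prp10, 0.175% in prp22 and 0.197% in sap114, with 0.0800% in prp1, against 0.129% and 0.102% in WT. The Wilson 95% intervals were 0.179 to 0.291 in cwf22, 0.180 to 0.274 in ntr1, 0.176 to 0.287 in prp10, 0.139 to 0.220 in prp22 and 0.153 to 0.254 in sap114, against 0.0972 to 0.171 and 0.0818 to 0.128 in WT. Those of prp22 and sap114 overlap that of WT replicate 1. At longer introns the share was 0.202% to 0.332% in the mutants, against 0.257% and 0.237% in WT. The reads at another 5′ splice site numbered 59 (sap114) to 87 (ntr1) in these 5 mutants, 52 in prp1 and 48 and 75 in WT. The denominator holds 27976 to 64952 annotated spliced reads in the mutants and 37213 and 73128 in WT. Spliced plus unspliced reads of the short introns were 59668 to 111327 in the mutants and 39677 and 78180 in WT. A larger share here can come with fewer annotated spliced reads, and the part of the denominator in the difference was not tested.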

How the results depend on the processing

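No paired analysis was possible because only WT carries replicate numbers. Class calls at the short introns were 63 with centred odds, 820 of 882 with a minimum of 1 read, 204 of 208 with 50 reads, 142 of 147 at 40 nt or less and 735 of 753 at 50 nt or less, where most changes follow from the number of introns tested. Strain calls against WT with centred odds were 0 in every strain. With a minimum of 1 read they were 715 in cwf22, 787 in ntr1, 598 in prp1, 700 in prp10, 757 in prp22 and 762 in sap114, and with 50 reads 207 in each of prp10, prp22 and cwf22, 205 in sap114, 204 in prp1 and 206 in ntr1. Without 1 WT library they were 299 to 311 in prp10, 301 to 309 in prp22, 302 to 321 in cwf22, 366 to 380 in sap114, 246 to 278 in prp1 and 377 to 387 in ntr1, with the spread then taken from the other mutants as 1 group. Calls of prp1 against the other mutants were 0 with centred odds and 137 with 50 reads. Spliced-read calls were 611 with a minimum of 1 read, 187 with 50 reads, 12 lower with TMM of the spliced reads themselves and 0 to 409 with 1 library left out. The WT medians of the unspliced share were 4.17% for replicate 1 at 40 nt or less, 3.53% and 3.71% for replicates 1 and 2 at 50 nt or less, 3.24% and 4.76% with a minimum of 1 read and 6.21% and 6.46% over summed reads. The prp10 difference in the gap between short and longer introns was examined under alternatives chosen after seeing the data. Not all of them are listed here. The difference was 0.64 with 50 reads, 0.49 with 1 read, 0.75 at 40 nt or less and 0.47 at 50 nt or less. It was 0.44 against WT in place of the other mutants, and 0.52 to 0.55 with 1 other mutant left out.

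With centred odds the class change turned negative at 16 named introns, relative to each library's median. These were pfd3 (-3.53), SPAC16C9.01C (-3.66), SPAC1687.21 (-1.74), vma11 (-1.26), atg44 (-2.62), icp55 intron 4 (-2.74), qcr8 (-0.49), etp1 (-3.63), vma9 (-2.07), rps27 (-0.097), cdc2 (-2.62), prp17 (-0.33), SPBC3E7.07C (-2.84), rpl2701 (-0.44), mmp1 (-2.79) and cox12 (-2.61). Unspliced counts alone, scaled on totals by TMM or DESeq2, turned SPAC16C9.01C (-0.37 in both), etp1 (-0.31 in both) and vma9 (-0.38 in both). Scaling on the spliced reads turned the spliced change at qcr8 (0.51), rps27 (0.86) and rpl2701 (0.76). Further causes were not tested. Depth limits single introns: the median short intron had 50 reads in WT replicate 1.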

Other observations

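Reads that used another 3′ splice site at the short introns made up a share that lay between the WT libraries in prp1 and below both in the other 5 mutants. Their share was 0.260% in cwf22, 0.227% in ntr1, 0.278% in prp1, 0.257% in prp10, 0.235% in prp22 and 0.250% in sap114, against 0.308% and 0.277% in WT. These reads came from 106 junctions at 89 short introns, and those of another 5′ splice site from 64 junctions at 56.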
